A study of Mus musculus with 12 samples.

Results

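The integrins and Cd44 adhesion receptors of mouse regulatory T cells (Tregs) described here are 10 genes, chosen by symbol: the integrin alpha subunits Itgae, Itga4, Itgal and Itga6, the beta subunits Itgb7, Itgb1, Itgb2 and Itgb3, the hyaluronan receptor Cd44, and Selplg, which encodes the selectin ligand PSGL-1. They are 10 of 23352 gene symbols measured, and all 10 are among the 11431 genes with enough signal to be tested. The cells came from spleen and lymph node tissue of C57BL/6 females and were sorted by surface CD62L, and their poly(A) RNA was sequenced. The 4 groups were KO CD62Llo (3 libraries), KO CD62Lhi (3), HET CD62Llo (3) and HET CD62Lhi (2 used). KO mice had the genotype Foxp3YFP-Cre/Foxp3WT with Ezh2fl/fl, and HET mice the genotype Foxp3YFP-Cre/Foxp3WT with Ezh2fl/+. All groups therefore carry the same Cre, driven from Foxp3, beside a wild-type Foxp3 allele, and all carry at least 1 floxed allele of Ezh2, the histone methyltransferase gene of Polycomb repressive complex PRC2. The labels do not say whether YFP was used in the sort, nor that replicate libraries are different animals, so the p-values may measure technical spread only.

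Integrins are surface receptors made of an alpha and a beta chain, and the pairing sets what they bind: alpha-E with beta-7 binds E-cadherin on epithelium, alpha-4 with beta-7 binds MAdCAM-1 on gut vessels, alpha-4 with beta-1 binds VCAM-1, and alpha-L with beta-2 (LFA-1) binds ICAMs. PSGL-1 lets T cells roll on selectins, and Cd44 binds hyaluronan and is a common surface marker of antigen-experienced T cells. Resting T cells keep CD62L and recirculate through lymph nodes, whereas activated Tregs lose it and enter tissues.

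Promoter sequences are shown for 3 members whose RNA moved in different directions between the fractions: the beta chains Itgb7 and Itgb1, which compete for the alpha-4 chain, and Cd44. Each is the 250 bases before the transcription start, 5′ to 3′ on the gene's strand, from RefSeq on GRCm38.p6 (mm10), whose table held such a window for 4 of the 10 members. Capitals mark matches, on either strand, to a RUNX motif (TGTGGT), a forkhead motif (GTAAACA), an ETS motif (CAGGAAG) or a GC box (GGGCGG).
Itgb7, chr15:102231936-102232185, minus strand: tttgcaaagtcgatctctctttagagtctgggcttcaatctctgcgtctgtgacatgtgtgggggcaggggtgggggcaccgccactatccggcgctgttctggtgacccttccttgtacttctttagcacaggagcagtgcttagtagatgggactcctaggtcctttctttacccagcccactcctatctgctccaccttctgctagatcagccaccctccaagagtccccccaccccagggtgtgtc
Itgb1, chr8:128685404-128685653, plus strand: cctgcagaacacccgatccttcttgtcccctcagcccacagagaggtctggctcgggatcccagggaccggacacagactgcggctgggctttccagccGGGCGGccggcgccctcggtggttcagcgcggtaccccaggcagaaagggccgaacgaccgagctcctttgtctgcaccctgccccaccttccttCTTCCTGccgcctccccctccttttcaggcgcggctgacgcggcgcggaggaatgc
Cd44, chr2:102901666-102901915, minus strand: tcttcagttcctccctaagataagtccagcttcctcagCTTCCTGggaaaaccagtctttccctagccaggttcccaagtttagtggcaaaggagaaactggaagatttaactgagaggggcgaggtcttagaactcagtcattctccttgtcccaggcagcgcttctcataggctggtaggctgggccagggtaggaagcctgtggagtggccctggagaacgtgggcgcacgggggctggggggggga
Itgb7 had no match to the 4 motifs. Itgb1 had an ETS match starting 56 bases and a GC box starting 151 bases before the start site, and Cd44 an ETS match 212 bases before it. Itga4, the fourth member with a window, had a RUNX match 60 bases and a GC box 114 bases before its start. Over 27025 promoters of the same length, 14.2% held the RUNX motif, 3.09% the forkhead motif, 10.5% the ETS motif and 32.9% the GC box. The Itgb1 window held 21 CpG dinucleotides and was 68% G and C, against 5 CpG for Itgb7 (56%), 5 for Cd44 (56.4%) and 6 for Itga4 (64%). The median promoter held 6 CpG and was 52% G and C.

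Levels are given as FPKM, fragments per kilobase of transcript, scaled to the mapped fragments of the library, as the authors deposited them. Read counts were not used here and absolute depth is unknown, but the step between low FPKM values gave relative depths of 0.243 to 0.779 in KO CD62Llo, 0.436 to 1 in KO CD62Lhi, 0.486 to 0.596 in HET CD62Llo and 0.367 and 0.458 in HET CD62Lhi. Pearson r of log2(FPKM + 1) within groups was 0.949 to 0.978. Ezh2, the targeted gene, averaged 14.6 ± 2.16 FPKM in KO CD62Llo and 18.8 ± 1.48 in HET CD62Llo (SD, n = 3 each), and 10.6 ± 1.24 (n = 3) in KO CD62Lhi and 12.6 ± 0.144 (n = 2) in HET CD62Lhi. The KO libraries lay below the HET libraries in both fractions, but neither difference passed (adjusted p = 0.113 and 1, limma with Benjamini-Hochberg), and a whole-gene FPKM does not show which exons were lost. Foxp3 averaged 84.2, 87.8, 88.0 and 91.8 FPKM in KO CD62Llo, KO CD62Lhi, HET CD62Llo and HET CD62Lhi, and all 7 T cell and Treg markers were above 1 FPKM in every group. Myeloid markers (5 of 6 listed are in the files) summed to 31.8 to 254 FPKM in KO CD62Llo, 13.3 to 19.3 in KO CD62Lhi, 48.6 to 98.9 in HET CD62Llo and 12.5 to 24.0 in HET CD62Lhi. B cell markers (all 6) summed to 24.0 to 58.9, 72.8 to 124, 18 to 29.8 and 75.2 to 90.8 in the same order, so both sums moved with the fractions. In each genotype 5 of the 6 B cell markers were lower in CD62Llo, but just 1 of 3 tested myeloid markers was called, as higher. Lyz2 held most of the myeloid sum, and Csf1r overlapped between the fractions in both genotypes. The part of B and myeloid cells in the fraction differences below was not tested. Epithelial markers (4) summed to 2.90 to 3.42 FPKM in KO CD62Llo, 0.848 to 1.86 in KO CD62Lhi, 6.23 to 7.47 in HET CD62Llo and 1.27 to 2.04 in HET CD62Lhi, the same order of groups as Itgae. Most of each sum was Epcam, at 2.41 to 3.02 FPKM in KO CD62Llo and 5.74 to 6.56 in HET CD62Llo. Krt8, Krt18 and Cdh1 stayed under 1 FPKM in every library. Of these Krt18 was higher in CD62Llo too, but Cdh1 did not follow the order of Itgae. The part of epithelial cells in the Itgae values was not tested. Markers of CD8 T and NK cells (6) summed to 36.0 to 52.3, 46.0 to 52.1, 45.6 to 52.9 and 57.9 to 62.5 FPKM in KO CD62Llo, KO CD62Lhi, HET CD62Llo and HET CD62Lhi, but of the 5 tested 2 rose and 2 fell in CD62Llo in each genotype. Cd8b1 was at 9.79 to 14.3 FPKM in KO CD62Llo and 22.8 to 28.1 in KO CD62Lhi, against 8.66 to 11.9 in HET CD62Llo and 29.9 and 33.0 in HET CD62Lhi. Nkg7 was at 22.9 to 36.1 and 13.1 to 16.1 in the KO fractions and 28.4 to 36.1 and 17.9 to 18.6 in the HET fractions, the CD62Llo range being the higher of each pair, so CD8 T and NK markers moved with the fractions too, in opposite directions, and their part was not tested. Platelet markers (8) summed to at most 2.40 FPKM in any library, with Gp6 and Treml1 at 0 in all, Gp1ba at 0.670 to 1.17 and Clec1b at up to 1.45, and endothelial and stromal markers (8) to at most 0.851, with Emcn at 0 in all. In bulk RNA, fewer cells carrying a transcript and less of it per cell cannot be told apart.

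Across the 4 groups the most abundant receptor transcripts were Itgb7, Itgb2, Selplg and Itgal, and Itgb3 and Cd44 were among the 3 scarcest in every group. In KO CD62Llo the group means ran from Itgb7 at 259 ± 10 FPKM through Itgb2 at 254 ± 13.2, Selplg at 232 ± 9.35 and Itgal at 191 ± 14 (SD, n = 3), and the ranges of Itgb7 and Itgb2 overlapped. Below these 4 came Itga4 at 61.9 ± 3.20, Itgb1 at 56.9 ± 2.08, Itga6 at 44.4 ± 3.01, Itgae at 32.3 ± 3.46, Cd44 at 24.6 ± 4.94 and Itgb3 at 8.38 ± 2.36. In HET CD62Llo Itgb1, at 92.1 ± 3.09 FPKM, stood above Itga4 at 64.0 ± 2.09, and Itgae, at 53.6 ± 8.05, above Itga6 at 37.4 ± 2.47, and in neither case did the libraries of the 2 genes overlap. In both CD62Lhi groups Itga4 and Itga6 were alike at 50.3 to 53.0 FPKM on average, and Itgb1 was lower, at 29.4 ± 6.44 in KO and 32.7 ± 3.64 in HET. The median coefficient of variation within a group was 6.08%, and the largest was 28.2%, for Itgb3 in KO CD62Llo.

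**Figure D1:**
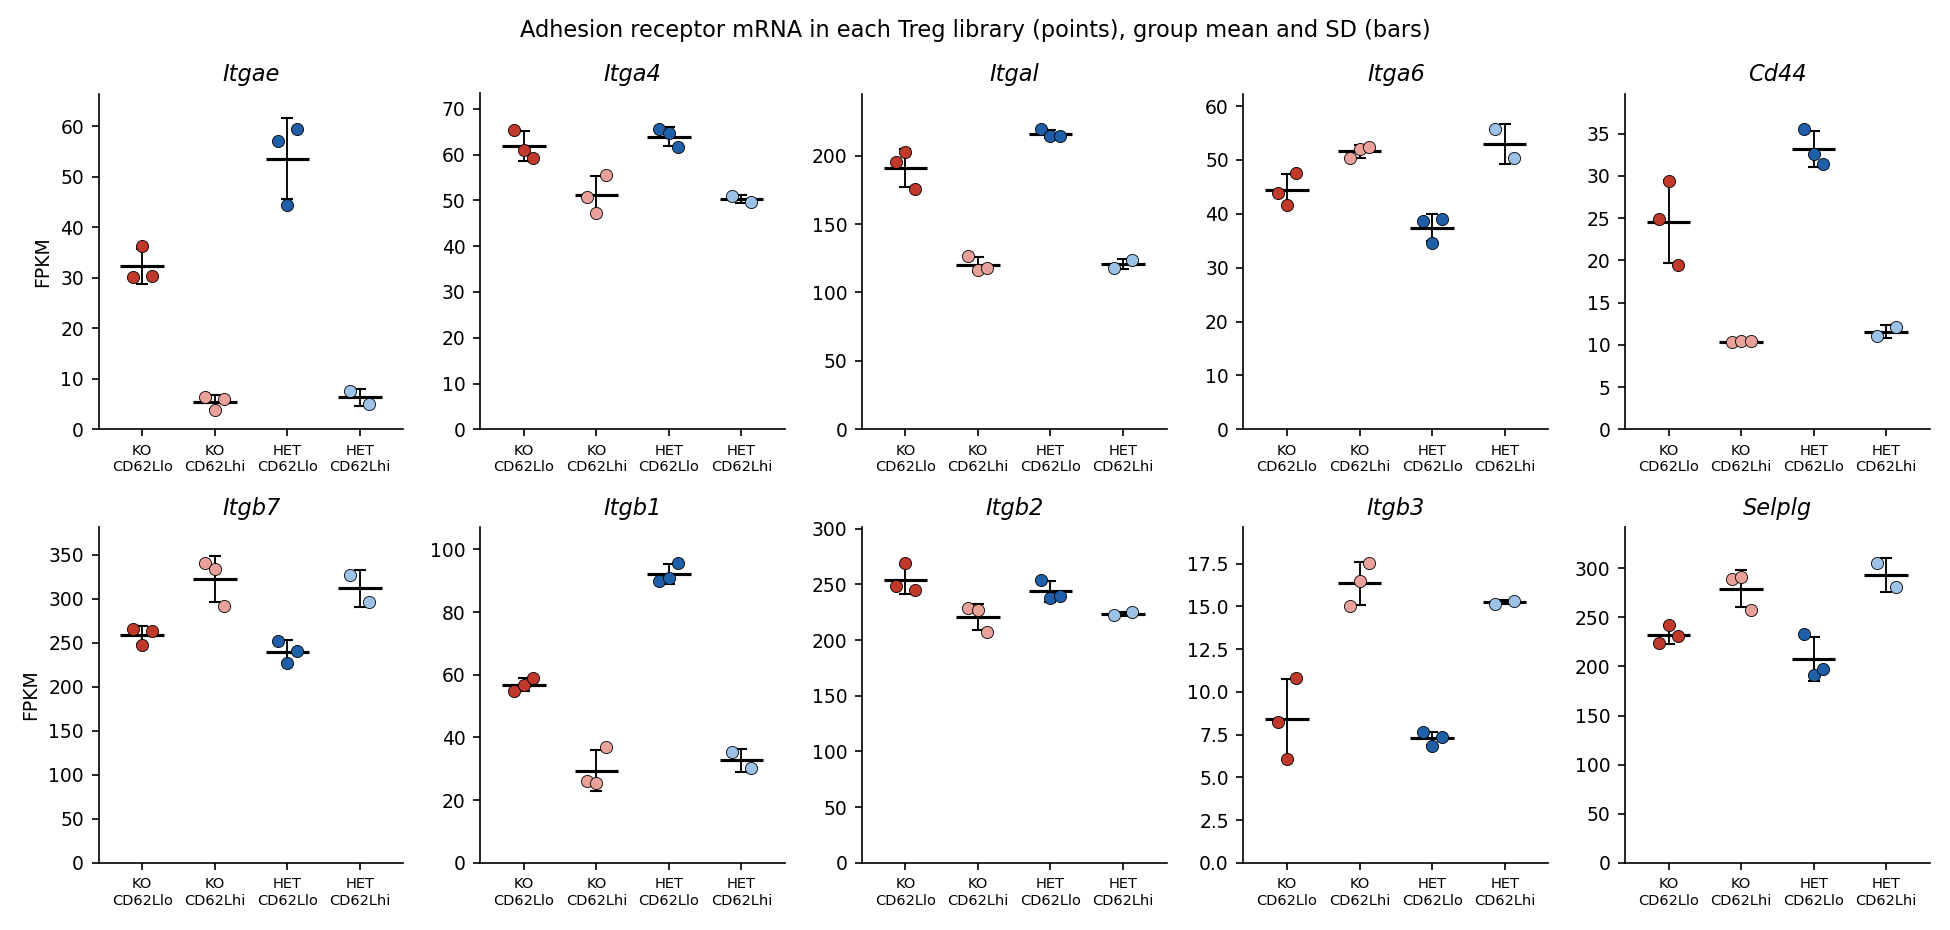
FPKM of each of the 10 members (one panel per gene, vertical axis from 0) in the 11 libraries, with KO CD62Llo, KO CD62Lhi, HET CD62Llo and HET CD62Lhi from left to right, points for libraries, and lines and bars for the group mean and SD. Itgae is at 30.2 to 36.3 in KO CD62Llo and 44.4 to 59.3 in HET CD62Llo, and under 8 FPKM in every CD62Lhi library.

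The comparison of CD62Llo with CD62Lhi Tregs asks which adhesion receptors differ between activated and resting Tregs, in each genotype. Itgae, Itgb1, Cd44, Itgal and Itga4 rose and Itgb7 and Itgb3 fell in CD62Llo in both genotypes. Itgae changed most, being 6.02-fold higher in KO and 8.51-fold higher in HET CD62Llo. In KO Tregs 6 members rose and 2 fell (limma on log2(FPKM + 1), Benjamini-Hochberg adjusted p under 0.05), where 11.9% of all tested genes were higher and 4.26% lower, 16.2% in all. In HET Tregs 5 rose and 4 fell, where 18.8% of all tested genes were higher and 8.88% lower, 27.7% in all. The libraries of the fractions did not overlap for any member in either genotype, with 6 wholly above and 4 wholly below in CD62Llo. Over all tested genes 24.3% were wholly above and 10.5% wholly below in KO, and 36.1% and 17.9% in HET. The median log2 change of the 10 members was 0.24 in KO and 0.23 in HET, and that of all tested genes 0.05 and 0.07. Quantile normalization shifted the median of all genes by -0.0733 in KO and -0.101 in HET and median centring by -0.0787 and -0.102. The calls over all genes were 1365 higher and 487 lower in KO as deposited, 954 and 797 after quantile normalization and 1007 and 987 after median centring. In HET they were 2148 higher and 1015 lower, 1431 and 1638, and 1522 and 1862. Over 340 refits of these changes under other settings, no member changed direction.

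Itgae, the alpha chain that tethers T cells to epithelium, had 30.2, 36.3 and 30.4 FPKM in KO CD62Llo, against 6.29, 3.81 and 6.00 in KO CD62Lhi. In HET Tregs it had 57.0, 44.4 and 59.3 FPKM in CD62Llo, against 7.52 and 5.07 in CD62Lhi. Every CD62Llo library was several times above every CD62Lhi library of its genotype, and the HET CD62Llo libraries were the highest of all. Its log2 change was 2.41 in KO (SE 0.19, adjusted p = 7.9e-05) and 2.91 in HET (SE 0.21, adjusted p = 2.1e-05), both by limma with Benjamini-Hochberg. Itga4, the chain shared by both gut- and inflammation-homing integrins, had 65.4, 60.9 and 59.3 FPKM in KO CD62Llo, against 50.7, 47.3 and 55.5 in KO CD62Lhi. Its HET values were 65.5, 64.8 and 61.6 FPKM in CD62Llo, against 50.9 and 49.7 in CD62Lhi. The fractions were separate in both genotypes but close together. The log2 change was 0.27 in KO (SE 0.06, adjusted p = 0.0180) and 0.34 in HET (SE 0.07, adjusted p = 0.00623, limma with Benjamini-Hochberg). The KO call was lost without KO CD62Llo replicate 1 (adjusted p = 0.0612) or KO CD62Lhi replicate 1 (0.0617) or 2 (0.0675), after median centring (0.0891) and with the KO libraries alone (0.0634), and the HET call without HET CD62Lhi replicate 2 (0.0506), with ranges over the alternatives of 0.00991 to 0.0891 and 0.00378 to 0.0506.

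The beta partners of these chains moved apart. Itgb7 had 265, 247 and 264 FPKM in KO CD62Llo, against 340.4, 334 and 292 in KO CD62Lhi. In HET Tregs it had 252, 227 and 241 FPKM in CD62Llo, against 326 and 297 in CD62Lhi. It was lower in every CD62Llo library than in any CD62Lhi library, and was the most abundant or second most abundant member. Its log2 change was -0.31 in KO (SE 0.07, adjusted p = 0.0169) and -0.38 in HET (SE 0.08, adjusted p = 0.00717, limma with Benjamini-Hochberg). The KO call was lost without KO CD62Llo replicate 2 (adjusted p = 0.0653) or KO CD62Lhi replicate 1 (0.0682) or 2 (0.0674), and the HET call without HET CD62Lhi replicate 1 (0.0779). The ranges over the alternatives were 0.00498 to 0.0682 in KO and 0.00167 to 0.0779 in HET. Itgb1, the common beta-1 chain that pairs with alpha-4 and alpha-6, had 54.8, 56.9 and 59.0 FPKM in KO CD62Llo, against 26.1, 25.3 and 36.9 in KO CD62Lhi. Its HET values were 90.0, 90.7 and 95.7 FPKM in CD62Llo, against 35.3 and 30.2 in CD62Lhi. The 4 groups formed 3 levels, with HET CD62Llo on top, KO CD62Llo in the middle and the CD62Lhi groups overlapping below. The log2 change was 0.95 in KO (SE 0.12, adjusted p = 0.00105) and 1.47 in HET (SE 0.14, adjusted p = 8.3e-05, limma with Benjamini-Hochberg).

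LFA-1, the ICAM receptor, changed in its alpha chain. Itgal had 195, 202 and 175 FPKM in KO CD62Llo, against 126, 116 and 118 in KO CD62Lhi. In HET Tregs it had 219, 215 and 214 FPKM in CD62Llo, against 118 and 124 in CD62Lhi. The CD62Llo libraries were clearly above, most evenly so in HET. Its log2 change was 0.66 in KO (SE 0.06, adjusted p = 1.6e-04) and 0.83 in HET (SE 0.07, adjusted p = 3.7e-05, limma with Benjamini-Hochberg). Itgb2, the beta chain of LFA-1, had 248, 269 and 245 FPKM in KO CD62Llo, against 229, 227 and 207 in KO CD62Lhi. Its HET values were 254, 238 and 239 FPKM in CD62Llo, against 222 and 225 in CD62Lhi. The fractions did not overlap, but lay close. The log2 change was 0.20 in KO (SE 0.06, adjusted p = 0.0402) and 0.12 in HET (SE 0.06, adjusted p = 0.186, limma with Benjamini-Hochberg). The KO call was lost in 11 of 17 alternatives (adjusted p 0.0266 to 0.131 over all 17), among them the omission of KO CD62Llo replicate 1 (0.0668) or 2 (0.131), KO CD62Lhi replicate 1 (0.0621), 2 (0.0744) or 3 (0.129), HET CD62Llo replicate 2 (0.0557) or 3 (0.0520) or HET CD62Lhi replicate 1 (0.0641) or 2 (0.0638).

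The remaining integrin chains were lower in CD62Llo. Itga6, the laminin-binding alpha chain, had 43.9, 41.7 and 47.6 FPKM in KO CD62Llo, against 50.3, 52.0 and 52.5 in KO CD62Lhi. In HET Tregs it had 38.7, 34.6 and 39.0 FPKM in CD62Llo, against 55.6 and 50.4 in CD62Lhi. The gap between fractions was narrow in KO and wider in HET. Its log2 change was -0.49 in HET (SE 0.08, adjusted p = 0.00118, limma with Benjamini-Hochberg) and passed there, while the KO value of -0.21 (SE 0.07, 95% interval -0.37 to -0.06, adjusted p = 0.0607) did not. It did pass in KO without KO CD62Llo replicate 3 (adjusted p = 0.0338) or HET CD62Llo replicate 2 (0.0498), after quantile normalization (0.0413) and after median centring (0.0220), in a range of 0.0220 to 0.191 over the alternatives. Itgb3, the beta-3 chain that pairs with alpha-v, had 8.26, 6.09 and 10.8 FPKM in KO CD62Llo, against 15.0, 16.5 and 17.5 in KO CD62Lhi. Its HET values were 7.65, 6.86 and 7.33 FPKM in CD62Llo, against 15.2 and 15.3 in CD62Lhi. The CD62Llo libraries lay at about the same low level in both genotypes, with KO CD62Llo replicate 3 the highest of them. The log2 change was -0.91 in KO (SE 0.15, adjusted p = 0.00349) and -0.97 in HET (SE 0.17, adjusted p = 0.00235, limma with Benjamini-Hochberg). Beta-3 is also abundant in platelets, whose part in these values was not tested.

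Cd44 had 24.8, 29.4 and 19.5 FPKM in KO CD62Llo, against 10.3, 10.5 and 10.4 in KO CD62Lhi. In HET Tregs it had 35.5, 32.6 and 31.4 FPKM in CD62Llo, against 11 and 12.1 in CD62Lhi. The CD62Lhi libraries were nearly level, and the KO CD62Llo libraries were spread between them and the HET CD62Llo libraries. Its log2 change was 1.15 in KO (SE 0.12, adjusted p = 2.9e-04) and 1.44 in HET (SE 0.13, adjusted p = 7.5e-05, limma with Benjamini-Hochberg). Selplg had 224, 242 and 231 FPKM in KO CD62Llo, against 289, 291 and 257 in KO CD62Lhi. Its HET values were 233, 191 and 198 FPKM in CD62Llo, against 305 and 281 in CD62Lhi. All CD62Llo libraries were below all CD62Lhi libraries. The log2 change of -0.50 in HET passed (SE 0.09, adjusted p = 0.00331, limma with Benjamini-Hochberg), and that of -0.26 in KO did not (SE 0.08, 95% interval -0.45 to -0.07, adjusted p = 0.0623). The KO value passed without HET CD62Llo replicate 1 (adjusted p = 0.0226), after quantile normalization (0.0202) and after median centring (0.0113), in a range of 0.0113 to 0.181 over the alternatives.

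**Figure D2:**
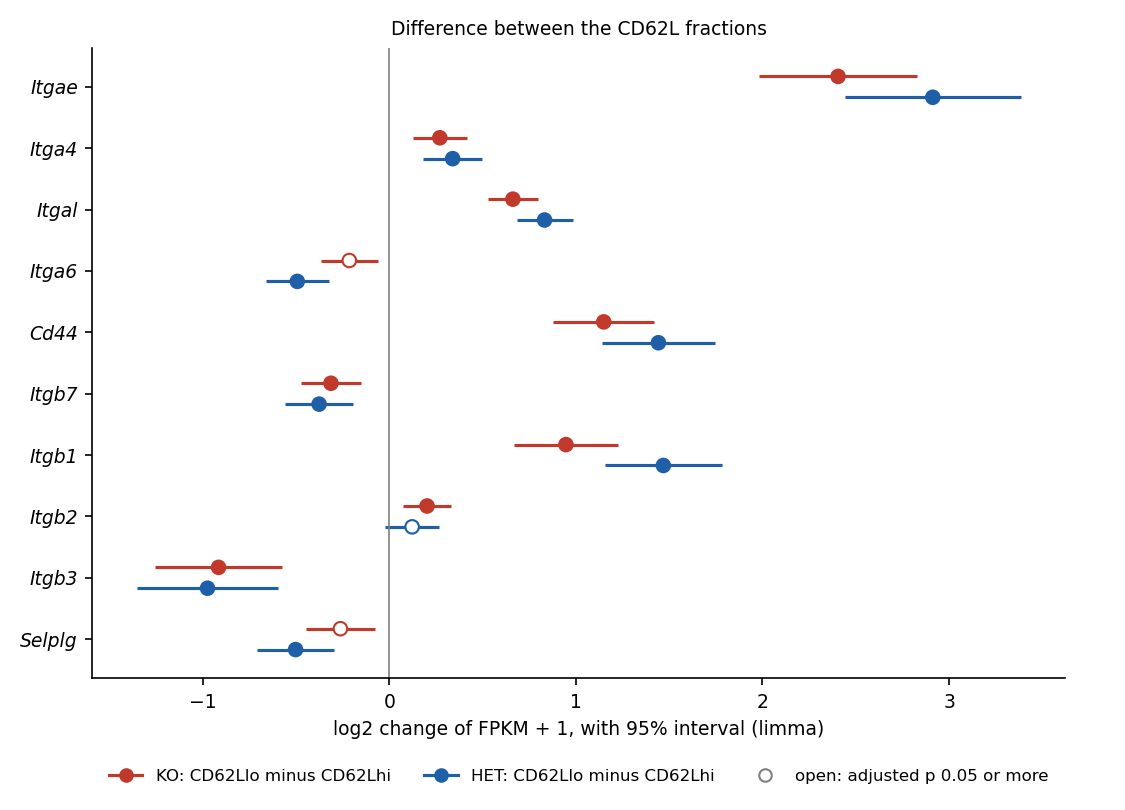
Log2 change of FPKM + 1 between CD62Llo and CD62Lhi (horizontal axis) for the 10 members in KO (upper of each pair, red) and HET (lower, blue), with 95% intervals from limma and open points where the adjusted p was 0.05 or more. Itgae stands at 2.41 in KO and 2.91 in HET, and Itgb3 at -0.91 and -0.97.

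All 10 members had the same sign of fraction change in KO as in HET, and 9 had a smaller change in KO, Itgb2 being the exception. The difference itself, tested as an interaction, passed for 0 members (limma with Benjamini-Hochberg), and for 1 of the 11431 genes tested (0.00875%). At an unadjusted p under 0.05 it held for 2 members, Itgb1 with -0.52 (SE 0.19, adjusted p = 0.539) and Itga6 with 0.28 (SE 0.10, adjusted p = 0.549). For Itgae it was -0.51 (95% interval -1.14 to 0.13) and for Cd44 -0.29 (-0.70 to 0.11), so differences of that size in either gene could not be resolved with these libraries.

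The chains can also be read as shares of the partners they compete with or stand in for. Beta-7 made up 82.9%, 81.3% and 81.7% of the summed Itgb7 and Itgb1 FPKM in KO CD62Llo and 92.9%, 92.9% and 88.8% in KO CD62Lhi. It made up 73.7%, 71.4% and 71.6% in HET CD62Llo and 90.2% and 90.8% in HET CD62Lhi. No group overlapped another except the CD62Lhi groups. Averaged over the genotypes, CD62Llo minus CD62Lhi was -13.9 percentage points (two-sided exact permutation within genotype, p = 0.005, the smallest the 200 rearrangements allow, Benjamini-Hochberg adjusted p = 0.01 over 6 tests). Averaged over the fractions it was 5.39 points higher in KO (exact permutation within fraction, p = 0.03, adjusted p = 0.036). The mean share was 82.0% in KO and 72.2% in HET CD62Llo, but 91.5% and 90.5% in CD62Lhi, so the average came mostly from CD62Llo. The same Itgb1 values enter the KO and HET comparison below, so the share is not separate evidence. Itgae made up 34.3% ± 2.90 of Itgae plus Itga4 in KO CD62Llo (SD, n = 3) and 9.42% ± 1.81 in KO CD62Lhi (n = 3), against 45.4% ± 4.32 in HET CD62Llo (n = 3) and 11.1% ± 2.57 in HET CD62Lhi (n = 2). It was 29.6 points higher in CD62Llo (exact permutation, p = 0.005, adjusted p = 0.01) and its KO minus HET value was -6.40 points (p = 0.025, adjusted p = 0.036). That value too is an average over the fractions, with the wider gap in CD62Llo. Both genotype differences missed the threshold in several refits that left out a library, at adjusted p of 0.025 to 0.075 for beta-7 and 0.036 to 0.105 for Itgae over the alternatives. Itgal made up 75.5%, 70.2%, 77.2% and 70.6% of Itgal plus Itga4 in KO CD62Llo, KO CD62Lhi, HET CD62Llo and HET CD62Lhi. That share was 5.95 points higher in CD62Llo (exact permutation, p = 0.005, adjusted p = 0.01), with a KO minus HET value of -1.05 points (p = 0.2, adjusted p = 0.2).

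Summed over 18 alpha subunit genes, integrin RNA averaged 350 ± 18.8 FPKM in KO CD62Llo and 243 ± 6.75 in KO CD62Lhi, against 393 ± 13.4 in HET CD62Llo and 245 ± 5.64 in HET CD62Lhi. Summed over 8 beta subunit genes it averaged 586 ± 1.08, 590.2 ± 31.0, 593 ± 18.7 and 585 ± 22.8 in the same order, so the beta sum was level while its makeup differed. Itgal alone made up 54.6% and 49.5% of the alpha sum in KO CD62Llo and KO CD62Lhi, and 55.0% and 49.4% in HET CD62Llo and HET CD62Lhi. Itgb7 and Itgb2 were the main beta chains everywhere, with 44.1% and 43.4% of the beta sum in KO CD62Llo, 54.5% and 37.4% in KO CD62Lhi, 40.4% and 41.1% in HET CD62Llo and 53.2% and 38.2% in HET CD62Lhi.

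**Figure D3:**
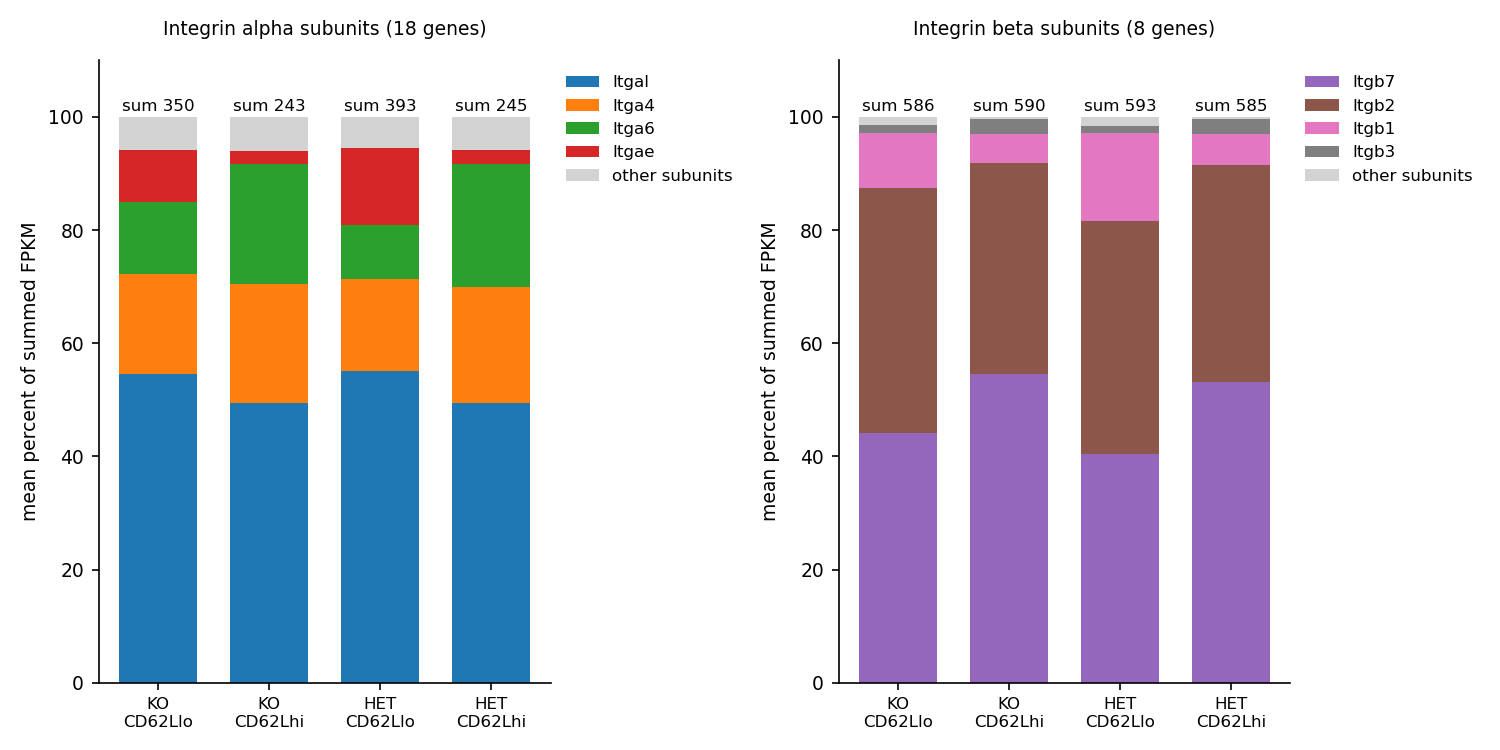
Mean percent of the summed FPKM of 18 integrin alpha genes (left) and 8 beta genes (right) held by each member, for KO CD62Llo, KO CD62Lhi, HET CD62Llo and HET CD62Lhi from left to right, with the mean sum in FPKM above each bar. The Itgae share of the alpha sum is 9.22% in KO CD62Llo and 13.6% in HET CD62Llo, and under 3% in the CD62Lhi groups.

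The comparison of KO with HET Tregs asks which receptors differ with the Ezh2 genotype, first among activated CD62Llo cells. Itgb1 was lower in KO, and it was the only member of the 10 that passed, where 3.25% of all tested genes were lower and 1.36% higher, 4.6% in all. KO CD62Llo Itgb1 was at 0.617 of the HET CD62Llo mean, with all KO libraries (54.8 to 59.0 FPKM) below all HET libraries (90.0 to 95.7 FPKM), which limma with Benjamini-Hochberg gave as -0.69 on the log2 scale (SE 0.12, adjusted p = 0.0170). That p was 0.0710 without KO CD62Llo replicate 1, 0.0615 without HET CD62Llo replicate 2 and 0.0569 without HET CD62Llo replicate 3, in a range of 0.00337 to 0.0710 over the alternatives. Itgae, Itgal and Cd44 also lay wholly below in KO and Itga6 wholly above, which 13.7% and 6.55% of all tested genes did. Their log2 changes were -0.71 for Itgae (SE 0.19, adjusted p = 0.0708), -0.18 for Itgal (SE 0.06, adjusted p = 0.142), -0.43 for Cd44 (SE 0.12, adjusted p = 0.0794) and 0.24 for Itga6 (SE 0.07, adjusted p = 0.0827). With the replicate number as a block in the limma fit of all 11 libraries, 3 members passed: Itgb1, Itgae (adjusted p = 0.045) and Itga6 (0.0352). The correlation of deviations pairs the KO and HET CD62Llo libraries by number, but not the KO and HET CD62Lhi libraries, on which the block was also imposed. Cd44 passed without KO CD62Llo replicate 2 (-0.57, adjusted p = 0.0165, range over the alternatives 0.0165 to 0.246) and Itgae without KO CD62Lhi replicate 2 (adjusted p = 0.0428, range 0.0428 to 0.206). The changes of Itga4 (-0.05), Itgb7 (0.11), Itgb2 (0.06), Itgb3 (0.15) and Selplg (0.17) had intervals that include 0, and their libraries overlapped. These are the same CD62Llo libraries as in the fraction comparisons above, so the values are not separate evidence. Over all tested genes 155 were higher and 371 lower in KO, but 237 and 310 after quantile normalization and 226 and 281 after median centring.

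The KO CD62Llo libraries differed among themselves in ways that touch these values. Replicate 3 had the lowest Cd44 and Itgal and the highest Itga6 and Itgb3 of its group, and the highest Itgb1. Lyz2, the most abundant myeloid marker, was at 124, 219 and 25.6 FPKM in KO CD62Llo replicates 1, 2 and 3, against 75.2, 50.8 and 40.2 in HET CD62Llo. Without replicate 3 the KO minus HET log2 change was -0.71 for Itgb1 (adjusted p = 0.0448), -0.67 for Itgae, -0.28 for Cd44 and 0.19 for Itga6. Replicate 3 is the KO CD62Llo library with the least Lyz2, so these values keep the libraries with more of it, and the part of myeloid cells in any of these differences was not tested.

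In CD62Lhi Tregs KO and HET were close for every member. No member and no gene of 11431 passed (0 called by limma with Benjamini-Hochberg, 0 members and 328 genes at an unadjusted p under 0.05), and refitting just the CD62Lhi libraries called 5 genes and 0 members. Cd44 alone had KO libraries (10.3 to 10.5 FPKM) wholly below the HET libraries (11 and 12.1 FPKM), as 14.4% of all tested genes did, with a log2 change of -0.14 (SE 0.13, adjusted p = 1). No member was wholly above, as 7.83% of genes were. The log2 changes of the members ran from -0.20 (Itgae, 95% interval -0.67 to 0.27) to 0.09 (Itgb3, -0.29 to 0.47). For the abundant chains the intervals were narrow, at -0.16 to 0.14 for Itgal and -0.16 to 0.12 for Itgb2.

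**Figure D4:**
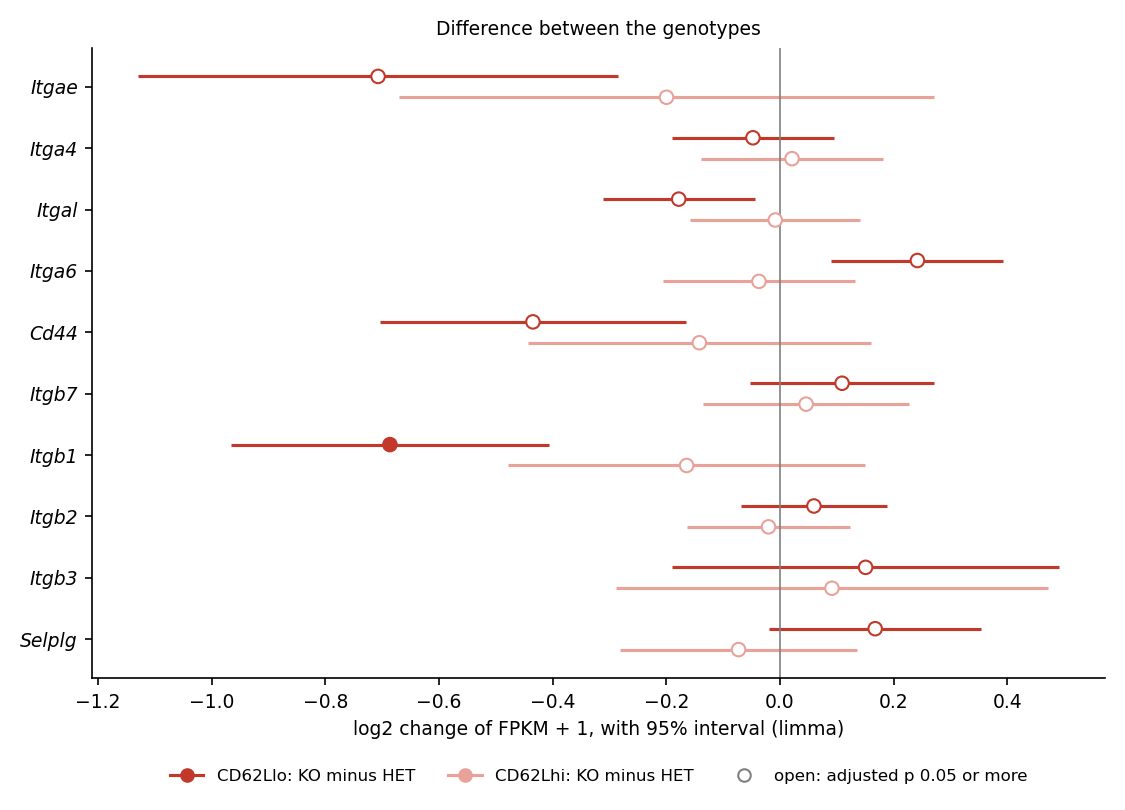
Log2 change of FPKM + 1 between KO and HET (horizontal axis) for the 10 members in CD62Llo (upper of each pair, dark red) and CD62Lhi (lower, pale red), with 95% intervals from limma and open points where the adjusted p was 0.05 or more. Itgb1 in CD62Llo, at -0.69, is the single filled point.

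Other genes of the adhesion system were read from lists chosen for this purpose, with limma and Benjamini-Hochberg over all genes. The counts between fractions stand beside 11.9% of all tested genes higher and 4.26% lower in KO, and 18.8% higher and 8.88% lower in HET, and nothing is called particular to a list. The list of other integrin genes held 19, among them Itgbl1, an integrin-like gene that was not counted as a beta subunit above. Of the 19, 8 could be tested, of which 4 rose and 0 fell in KO CD62Llo and 5 rose and 0 fell in HET CD62Llo against their CD62Lhi groups. Their median log2 change was 0.58 in KO and 0.54 in HET. Itgb8, whose product activates TGF-beta, averaged 5.10 ± 0.655 FPKM in KO CD62Llo and 1.47 ± 0.126 in KO CD62Lhi, a log2 change of 1.30 (SE 0.17, adjusted p = 0.00105). Its HET means were 7.01 ± 2.20 and 1.55 ± 0.241 in CD62Llo and CD62Lhi (log2 1.62, SE 0.19, adjusted p = 2.8e-04). Itgav, the alpha partner of beta-8 and beta-3, averaged 7.39 ± 0.290 FPKM in KO CD62Llo and 11 ± 1.8 in HET CD62Llo. Its KO minus HET log2 change was -0.51 (SE 0.10, adjusted p = 0.0202, limma with Benjamini-Hochberg). It was the 1 of 8 that passed there, where 4.6% of all tested genes passed. Of 23 ligands and counter-receptors 9 were tested, and 2 rose and 2 fell in KO CD62Llo and 4 rose and 4 fell in HET CD62Llo, where 16.2% of all tested genes were called in KO and 27.7% in HET. Icam1, an LFA-1 ligand, averaged 18 ± 0.392 FPKM in KO CD62Llo and 27.8 ± 2.04 in HET CD62Llo, and was lower in KO by a log2 change of -0.60 (SE 0.08, adjusted p = 0.005). Cd226, an activating receptor that associates with LFA-1, was lower in KO CD62Llo as well, at 18.9 ± 1.4 FPKM against 25.5 ± 0.572 in HET CD62Llo (log2 -0.42, SE 0.08, adjusted p = 0.0180).

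Of 32 tested genes of integrin activation and adaptors (37 listed), 2 rose and 7 fell in KO CD62Llo and 2 rose and 8 fell in HET CD62Llo, with median log2 changes of -0.03 and -0.06, where 4.26% of all tested genes fell in KO and 8.88% in HET. Rasgrp2, the exchange factor that loads Rap1 for integrin activation, averaged 71.2 ± 11.6 FPKM in KO CD62Llo and 120 ± 12.7 in KO CD62Lhi, against 41.1 ± 3.94 in HET CD62Llo and 115 ± 6.06 in HET CD62Lhi. By limma with Benjamini-Hochberg it fell by 0.76 on the log2 scale in KO (adjusted p = 0.00360) and by 1.47 in HET (adjusted p = 8.9e-05). It was the 1 of 32 that was higher in KO CD62Llo than in HET CD62Llo (0.77, SE 0.13, adjusted p = 0.0120, limma with Benjamini-Hochberg), where 1.36% of all tested genes were higher. Rap1a, a Rap1 GTPase gene, rose by 0.43 in KO (SE 0.08) and 0.44 in HET (SE 0.09). Cytip, which binds the integrin regulator cytohesin-1, fell by 0.49 in KO and 0.78 in HET, and Cyth1, the cytohesin-1 gene, fell by 0.23 and 0.47.

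Enzymes that make selectin ligand glycans, the sugars PSGL-1 carries among them, gave 2 rises and 0 falls among 11 tested genes (13 listed) in KO CD62Llo and 3 rises and 1 fall in HET CD62Llo, where 16.2% and 27.7% of all tested genes were called in KO and HET. Chst2, a sulfotransferase, averaged 3.68 ± 0.428 FPKM in KO CD62Llo and 0.568 ± 0.186 in KO CD62Lhi, against 6.28 ± 0.729 in HET CD62Llo and 0.730 ± 0.0813 in HET CD62Lhi. Its log2 change was 1.58 in KO (SE 0.11, adjusted p = 5.5e-05) and 2.07 in HET (SE 0.13, adjusted p = 1.0e-05), and KO minus HET in CD62Llo was -0.64 (SE 0.11, adjusted p = 0.0160, limma with Benjamini-Hochberg). In that comparison 3 of the 11 enzymes were lower and 1 was higher, where 3.25% of all tested genes were lower and 1.36% higher. Beside Chst2, Gcnt1 (-1.11) and Fut7 (-0.84) were lower and St3gal4 (0.31) was higher. Gcnt1 and Fut7 were named after their values were seen. Of 11 regulators of integrin genes, all tested, 4 rose and 1 fell in KO CD62Llo and 6 rose and 2 fell in HET CD62Llo, where 11.9% of all tested genes rose and 4.26% fell in KO and 18.8% rose and 8.88% fell in HET. Ahr, the aryl hydrocarbon receptor, averaged 5.57 ± 0.558 FPKM in KO CD62Llo and 1.49 ± 0.337 in KO CD62Lhi (log2 1.4, adjusted p = 8.4e-05), against 9.47 ± 0.975 in HET CD62Llo and 1.68 ± 0.0483 in HET CD62Lhi (log2 1.96, adjusted p = 1.2e-05). Maf, a transcription factor of effector Tregs, had log2 changes of 2.90 in KO (SE 0.20) and 3.59 in HET (SE 0.22), and Klf2, a factor that keeps T cells recirculating, -1.01 (SE 0.10) and -1.69 (SE 0.11). Between KO and HET CD62Llo 1 regulator was higher, Klf2 (0.70, adjusted p = 0.00784, limma with Benjamini-Hochberg), and 3 were lower. The lower ones were Prdm1 (-1.36, adjusted p = 0.00512), Ahr (-0.67, adjusted p = 0.0121) and Runx3 (-0.49, adjusted p = 0.0432), by the same test. Of all tested genes 1.36% were higher and 3.25% lower there. Prdm1 and Runx3 were named after their values were seen.

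**Figure D5:**
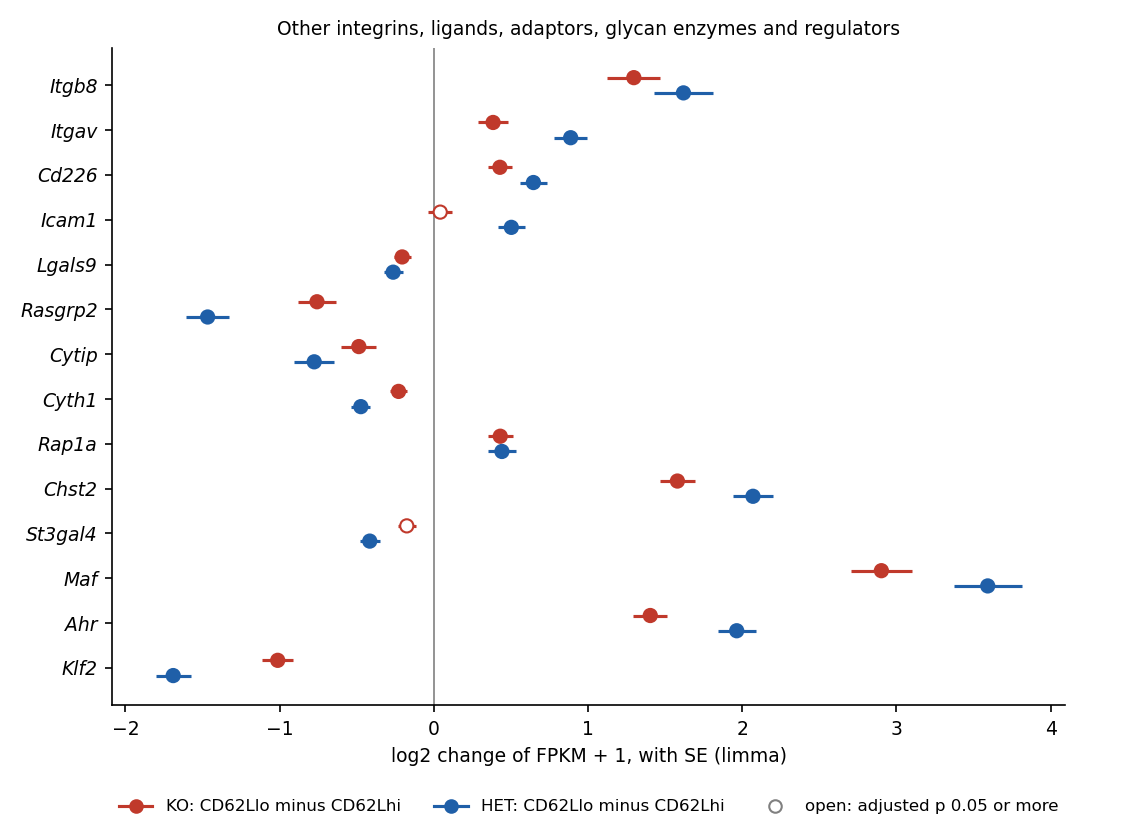
Log2 change of FPKM + 1 between CD62Llo and CD62Lhi (horizontal axis, with SE) for 14 named genes of the adhesion system in KO (upper of each pair, red) and HET (lower, blue), open where the adjusted p was 0.05 or more. Maf is highest, at 2.90 in KO and 3.59 in HET, and Icam1 in KO, at 0.04, is nearest to 0.

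The genes most like 4 of the members across the 11 libraries were found by Pearson r of log2(FPKM + 1) over 7943 genes with a mean of at least 5 FPKM, as a description in which all points share the same 11 libraries and 4 groups. For Itgae they were Ebi3, a subunit of IL-35 (r = 0.991), B4galnt4, a glycosyltransferase (0.991), and Gsg2, the haspin kinase (0.991). For Cd44 they were Id2, an inhibitor of E proteins (0.997), Rnf19a, a ubiquitin ligase (0.996), and Nfatc1, a calcium-responsive transcription factor (0.993). For Itga6 they were Sh3bp5 (0.987), Ly6c2, a surface antigen near-identical to Ly6c1 (0.977), and Pik3r5, a regulatory subunit of PI3 kinase (0.975). For Itgb3 they included Ppp3ca, a catalytic chain of calcineurin (0.984), and Chd2, a chromatin remodeller (0.981). Ebi3, for example, averaged 10.5 FPKM in KO CD62Llo and 2.03 in KO CD62Lhi, against 17.9 in HET CD62Llo and 2.85 in HET CD62Lhi, the same order of groups as Itgae.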

How the data were processed

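Poly(A) RNA of sorted Tregs was sequenced as single reads of 50 bp, per the labels. The authors deposited gene-level FPKM. The submitters' processing notes name mm10 and the tools Cufflinks 2.1.1, TopHat, CASAVA 1.8.2 and FastQC, without settings. The submitters dropped HET CD62Lhi replicate 3 for low read counts, per the labels, and so it was not compared here. The members, gene lists and naming rule (10 members, 3 check genes, up to 3 called genes per list and fraction comparison, and the 3 genes most like each of 4 members) were chosen with earlier results of these data known, and 2 genes under this rule are not reported here. FPKM of symbols with several entries were summed. Genes reaching 1 FPKM in 2 or more of 11 libraries entered a joint limma 3.58.1 fit (R 4.3.3) of log2(FPKM + 1), which understates changes of low genes, with 4 group means, a variance trend and Benjamini-Hochberg adjustment at 0.05. Intervals are for single genes. The fit was tested on simulated data. Partner shares were tested by exact permutation (scipy 1.17.1). Alternatives covered the pseudocount (0.1), the filter, scaling, the libraries fitted, the replicate number as a block and each library left out. Departures from the group mean of KO and HET CD62Llo libraries with the same number correlated at r of 0.148 to 0.165, above 0.1 in all 3 pairs. The numbers pair these by correlation alone. Same-numbered libraries of the KO fractions correlated at 0.0684 to 0.178, against -0.178 to 0.0858 for other numbers. Those of the HET fractions correlated at 0.0732 and 0.135, against -0.135 to 0.0603. These were not all above 0.1, and whether the fractions of a genotype are paired was not tested further. Of 110 member values, 42 lie outside the interval deposited beside them; the reason is not known.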

Additional observations from a re-analysis of the deposited data

How the results depend on the processing

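All 340 refits of the members' fraction changes kept their direction, and Itgae, Itgb1, Itgal, Cd44 and Itgb3 passed in all of them in both genotypes. Between KO and HET CD62Llo, fitting those libraries alone lowered the calls over all genes to 109, and the replicate block gave 3 members. Fitting the CD62Lhi libraries alone called 5 genes between KO and HET CD62Lhi, and the interaction called 4 genes with no filter on low values. The small KO minus HET changes in CD62Lhi turned sign for Itgal under quantile normalization (0.0114), median centring (0.00767) and the replicate block (0.0179), and for Itgb2 under quantile normalization (0.0129) and the block (0.00827). Leaving out 1 library at a time gave 1920 to 3332 genes called between HET fractions (lowest without HET CD62Lhi replicate 1, then 2013 without replicate 2), 1186 to 1976 between KO fractions (1186 without KO CD62Llo replicate 2, 1207 and 1217 without KO CD62Lhi replicates 1 and 2), 177 to 613 between KO and HET CD62Llo (177 and 301 without HET CD62Llo replicates 2 and 3, 189 and 285 without KO CD62Llo replicates 1 and 3), 0 to 5 in CD62Lhi and 1 to 5 for the interaction. Members called ranged from 5 to 9 between KO fractions, 5 without KO CD62Lhi replicate 1 or 2, and from 0 to 2 between KO and HET CD62Llo. The KO minus HET change in CD62Llo of Itgb3 ran from -0.0302 to 0.338. In CD62Lhi the changes ran from -0.445 to 0.0452 for Itgae, -0.0377 to 0.0751 for Itga4, -0.0225 to 0.115 for Itgb7, -0.0444 to 0.0250 for Itgal, -0.0465 to 0.0258 for Itgb2 and -0.107 to 0.0334 for Itga6. The interaction ran from -0.00556 to 0.132 for Itgb7 and -0.122 to 0.246 for Itgb3. KO minus HET shares ran from 5.04 to 6.07 points for Itgb7 and -7.60 to -5.49 for Itgae. The cause of these shifts was not tested. The replicate block also let Itga6 pass between KO fractions (adjusted p = 0.0252) and changed no member's call in HET or CD62Lhi. With 2 HET CD62Lhi libraries and no read counts, small differences are limited by the number of libraries.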

Other observations

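In the library left out, HET CD62Lhi replicate 3, 589 of 23846 gene entries were above 0, and of the members only Itgb7 (302 FPKM) and Selplg (311 FPKM) were, which are the members with the highest means in the other HET CD62Lhi libraries (311 and 293 FPKM).

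The authors' deposited table of merged groups gives each member a higher value than the mean of its libraries in every group. For Itgae the authors' merged values are 37.9, 6.57, 61.3 and 7.44 FPKM in KO CD62Llo, KO CD62Lhi, HET CD62Llo and HET CD62Lhi, and for Itgb1 they are 73.5, 40.1, 117 and 46.1 FPKM, the same order of groups as in the library means.

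The integrin chains too low to be tested, Itga1, Itga2, Itga2b, Itga8, Itga10, Itga11, Itgam, Itgax, Itgb4 and Itgb6, and the integrin-like Itgbl1, stayed under 1 FPKM in every library. Itgb5, which was tested, averaged 2.89 ± 0.617 FPKM in KO CD62Llo and 0.321 ± 0.0135 in KO CD62Lhi (SD, n = 3 each), against 2.78 ± 0.268 (n = 3) in HET CD62Llo and 0.519 ± 0.333 (n = 2) in HET CD62Lhi; it was named after its values were seen.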
